A study of Mus musculus with 23 samples.

Results

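The genes described here are 5 proneural basic helix-loop-helix (bHLH) transcription factors of the glutamatergic lineage, Neurog2, Neurod1, Neurod2, Neurod6 and Bhlhe22, and the 4 inhibitor of DNA binding genes, Id1, Id2, Id3 and Id4. They were chosen by name, and all 9 were found among the 56941 genes of the count files and passed the filter on low counts that left 14488 genes for testing. RNA of primary hippocampal neurons was sequenced in 23 libraries. The neurons came from newborn (P0) mice homozygous for Nedd8cKO, a conditional allele of the ubiquitin-like modifier Nedd8 with loxP sites on both sides of exons 2 and 3, so that CRE and RFP neurons carried the same genotype. Neurons received lentivirus on day 1 in vitro (DIV1), which encoded either RFP (11 libraries) or CRE-recombinase together with RFP (12 libraries) under the Synapsin1 promoter. The harvest is given as day 12 in the labels and as day 13 in the protocol. The promoter is active in neurons, no step against the other cells of the dish is described, each dish held about a pair of hippocampi, and no uninfected culture is part of the comparison. The first number in a library's name is read here as its culture and the second as its number within it (CRE 1-3 is library 3 of culture 1), though no source states this in words or says whether libraries of 1 culture came from separate animals.

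Proneural bHLH proteins bind E-box motifs as pairs with the widely expressed E proteins and switch on neuronal genes. Bhlhe22, counted among the proneural genes here, is instead a repressor. In the cortex and hippocampus Neurog2 acts in progenitors that make glutamatergic neurons, Neurod1 follows in newborn neurons, and Neurod2, Neurod6 and Bhlhe22 remain in differentiated neurons. Id proteins have the helix-loop-helix but no DNA-binding region. They hold E proteins in pairs that cannot bind DNA, and their genes are classic targets of BMP signaling.

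Comparisons used 21 libraries (11 CRE, 10 RFP) with 7430401 to 17112815 counts each, without CRE 3-3 and RFP 3-2. These are the libraries of the count table in the study's supplement. The study's methods text instead removes CRE 1-3 and CRE 3-3, a set that was used as an alternative. Among all 23 libraries 4 stood apart. CRE 1-3, CRE 3-3 and RFP 2-4 had 0.261, 1.83 and 3.43% of their counts on mitochondrial genes, against 7.0 to 11.1% in the 19 unremarkable libraries, and genes of higher GC content had higher counts in them (Spearman's rho 0.782, 0.626 and 0.579, against -0.178 to 0.312). CRE 3-3 was also the shallowest library with 1546796 counts, and in RFP 3-2 the ribosomal RNA gene Rn18s-rs5 took 24.2% of the counts. Results are therefore given over the 21 libraries and, where they differ, over the 19 without these 4 and over all 23. Nedd8 itself lay between 44.1 and 76.0 CPM (counts per 1000000 of a library's counts after TMM scaling) in the 10 RFP libraries and between 5.92 and 18.0 CPM in the 11 CRE libraries, and the ranges did not touch.

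The letters before the start sites of 3 of the genes are printed to show the E-box, the motif that these factors bind. Each run is the 250 bases upstream of the annotated start of the gene's canonical transcript in GRCm39, 5′ to 3′ on the strand of the gene. Capitals mark CANNTG, which reads the same on both strands.
Neurod2 (chr11:98220481-98220730, minus strand): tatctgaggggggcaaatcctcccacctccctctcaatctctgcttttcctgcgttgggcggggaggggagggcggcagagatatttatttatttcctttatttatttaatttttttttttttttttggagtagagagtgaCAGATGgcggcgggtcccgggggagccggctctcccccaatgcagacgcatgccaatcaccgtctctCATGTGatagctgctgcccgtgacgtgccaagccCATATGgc
Neurod6 (chr6:55658327-55658576, minus strand): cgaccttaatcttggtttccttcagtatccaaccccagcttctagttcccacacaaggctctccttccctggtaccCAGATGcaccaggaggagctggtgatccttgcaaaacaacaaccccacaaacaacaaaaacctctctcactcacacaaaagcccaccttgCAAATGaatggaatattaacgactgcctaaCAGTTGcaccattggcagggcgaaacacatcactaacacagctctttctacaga
Id2 (chr12:25147283-25147532, minus strand): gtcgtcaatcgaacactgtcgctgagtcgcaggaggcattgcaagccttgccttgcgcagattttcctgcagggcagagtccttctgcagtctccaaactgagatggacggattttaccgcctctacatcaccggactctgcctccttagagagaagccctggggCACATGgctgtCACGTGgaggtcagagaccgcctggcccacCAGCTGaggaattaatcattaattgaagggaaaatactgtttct

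CANNTG was found in the windows of 5 of 5 proneural genes and of 1 of 4 Id genes, Id2, against 64.8% of the 21770 windows of protein-coding genes. CAGATG, which is 1 form of this motif and was searched on both strands, was in the windows of Neurod1, Neurod2 and Neurod6 and in 13% of all windows. CAGCTG, another form, was in those of Neurog2 and Id2 (11.9% of all). The canonical transcripts of Neurod1 and Id1 start inside the spans given below for these genes. The Neurod1 window therefore lies partly and the Id1 window wholly within the gene. These are matches of letters, and binding was not measured.

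**Figure D1:**
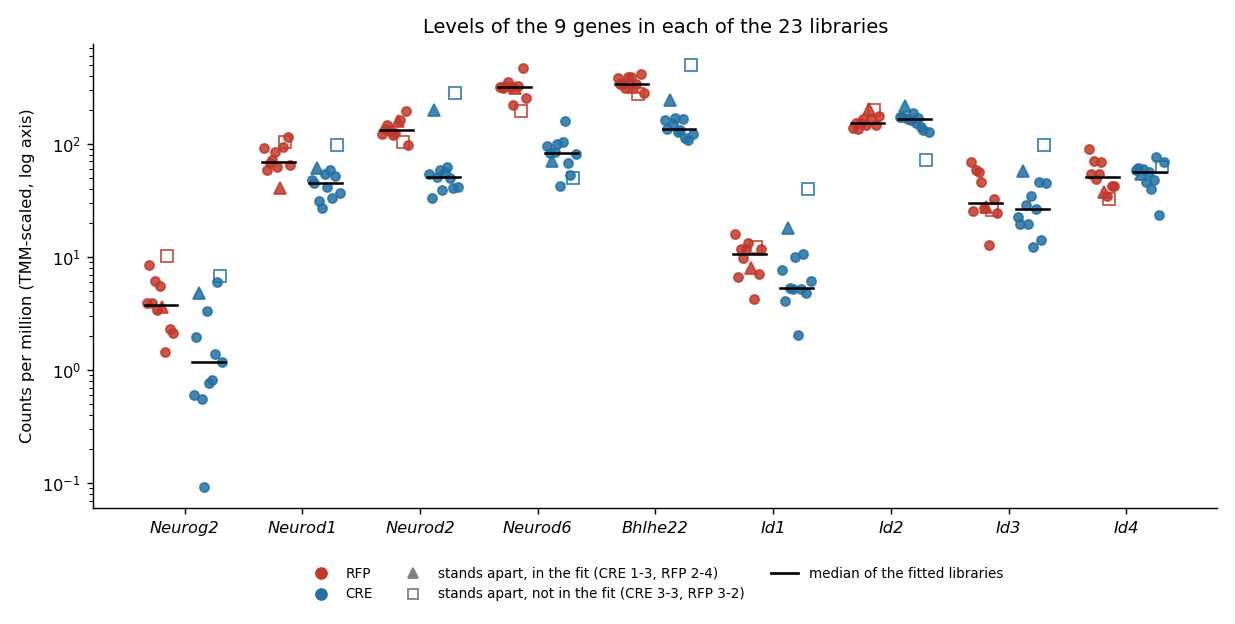
CPM of the 9 genes (y axis, log scale) in each of the 11 RFP (red) and 12 CRE (blue) libraries. Each point is a library, triangles and open squares are the 4 libraries that stand apart, and black lines are medians of the 21 compared libraries. CRE points of Neurod6 lie below every RFP point, whereas most of those of Id2, Id3 and Id4 lie among them.

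The factors of newborn and differentiated neurons were lower in CRE libraries, and the Id genes were not called over the 21 libraries. Of the proneural genes, 4 of 5 were called lower at an adjusted p under 0.05 in the quasi-likelihood test of edgeR (Benjamini-Hochberg adjusted), where 13.8% of all 14488 genes were called lower and 16.4% higher (with library totals in place of TMM scaling, 10.6 and 20.4%). Their median log2 fold change (CRE over RFP) was -1.18, against 0.02 over all genes tested. Of the Id genes, 0 of 4 were called in either direction, where 30.2% of all genes were called. None of the 4 had an unadjusted p under 0.05, DESeq2 also called 0, and their median log2 fold change was -0.20. Over the 19 libraries 5 of 5 proneural genes (18.7% of all genes) and 1 of 4 Id genes, Id1, were called lower. The same counts held without CRE 1-3 and CRE 3-3, the libraries that the study's methods text removes (17.8% of all genes called lower). Over all 23 libraries 3 of 5 proneural genes were called lower (11.8% of all genes) and 0 of 4 Id genes were called. In simulated counts edgeR called 5 of 39 genes with a log2 fold change of -0.5. Far fewer genes were changed there than were called here, which makes the adjustment stricter, and they were drawn at random. That share therefore cannot be carried over to the Id genes.

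Neurod6, a factor of differentiated pyramidal neurons (chromosome 6, 55654807-55658326, minus strand), showed the largest difference of the 9 genes. RFP libraries ranged from 219.8 to 470.7 CPM (median 319.6, 2527 to 5949 counts) and CRE libraries from 42.9 to 160.7 CPM (median 83.9, 519 to 1774 counts). Every CRE library lay below every RFP library, as for 2.08% of all genes tested over the 21 libraries. This also held when all 23 libraries were taken, where the share of all genes was not counted. The log2 fold change was -1.92 ± 0.17 (SE, 95% interval -2.28 to -1.56), which is 26.4% of the RFP level (edgeR, adjusted p = 6.4e-09). Over the 21 libraries it was also the 1 member beyond a log2 fold change of 1.3 in size and a -log10 adjusted p of 6. These limits were passed by 1.39% of all genes in either direction and by 0.297% in the lower one. Over the 19 libraries Neurod2 (-1.51, edgeR adjusted p = 1.6e-10) and Bhlhe22 (-1.38, 4.9e-12) passed them as well, and the share of all genes was not counted there. With counts summed per culture Neurod6 did not pass them (edgeR adjusted p = 4.2e-06).

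Bhlhe22, a bHLH repressor of postmitotic projection neurons (chromosome 3, 18108338-18111681, plus strand), was the second most different. Its level was 283.7 to 415.6 CPM in RFP libraries (median 339.9) and 107.4 to 242.8 CPM in CRE libraries (median 136.9). The groups did not overlap over the 21 libraries. Such a gap with CRE lower was seen for 2.08% of all genes tested, and for 2 of the 9 members, Neurod6 and Bhlhe22. The fold change on the log2 scale was -1.27 ± 0.12 (SE, adjusted p = 2.4e-08 in edgeR), and -0.97 with an adjusted p of 0.00051 when CRE 3-3 and RFP 3-2 were put back. CRE 3-3 alone had 498.6 CPM, above every RFP library.

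Neurod2, which acts in maturing glutamatergic neurons and their synapses (chromosome 11, 98216241-98220480, minus strand), had 97.0 to 194.5 CPM in RFP libraries (median 133.3). Of the CRE libraries, 10 of 11 lay between 33.2 and 62.3 CPM, below every RFP library, and CRE 1-3 lay above every RFP library at 201.5 CPM. Its log2 fold change was -1.18 ± 0.24 (SE, edgeR adjusted p = 0.00050). Without the libraries that stand apart it was -1.51 with an adjusted p of 1.6e-10 and the groups did not overlap (as for 4.09% of all genes tested over these 19 libraries with CRE lower, and 3.78% with CRE higher, where the members numbered 3 and 0), and over all 23 libraries it was -0.78 with an adjusted p of 0.053. Neurod2 had the highest GC content of the 9 transcripts, 58.9%, and CRE 1-3 the strongest trend of counts with GC content. After each library's GC trend was removed by an offset, the log2 fold change was -1.29 over the 21 libraries and -1.15 over all 23, with edgeR adjusted p of 1.2e-08 and 1e-06.

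Neurod1, which drives newborn neurons out of the progenitor state (chromosome 2, 79282865-79287294, minus strand), ranged from 40.9 to 114.6 CPM in RFP libraries (median 70.0) and from 27.2 to 61.4 CPM in CRE libraries (median 45.6). All 11 CRE libraries lay below the RFP median, but 7 of them lay within the RFP range, whose lowest library was RFP 2-4. Over the 19 libraries, without RFP 2-4 and CRE 1-3, 9 of 10 CRE libraries lay below every RFP library. Neurod1 had a log2 fold change of -0.77 ± 0.17 (SE, edgeR adjusted p = 0.00083). With the GC trend removed over all 23 libraries it was -0.46 with an adjusted p of 0.17.

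Neurog2, the progenitor factor at the head of the series (chromosome 3, 127426448-127429280, plus strand), was the scarcest member. RFP libraries held 14 to 113 counts of it (1.44 to 8.53 CPM, median 3.77) and CRE libraries 1 to 59 counts (0.093 to 6.05 CPM, median 1.17). Of the CRE libraries 7 of 11 lay below every RFP library, and the remaining 4, CRE 1-2, 1-3, 2-2 and 3-2, lay inside the RFP range. The log2 fold change of -1.10 ± 0.48 (SE, 95% interval -2.08 to -0.11) was not called in edgeR (adjusted p = 0.088), nor in DESeq2 (adjusted p = 0.059). Without CRE 1-3 it was -1.31 with an adjusted p of 0.028, without CRE 3-2 -1.45 with 0.022, without culture 3 -1.68 with 0.034, and over the 19 libraries -1.33 with 0.032. It was smaller without culture 1 (-0.87, adjusted p = 0.30) and without culture 2 (-0.68, adjusted p = 0.50). Its SD was 52.0% of the mean in RFP and 98.9% in CRE libraries. Relative counting error is largest for this gene, and its part in that spread was not tested. Leaving out single libraries changed its call.

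**Figure D2:**
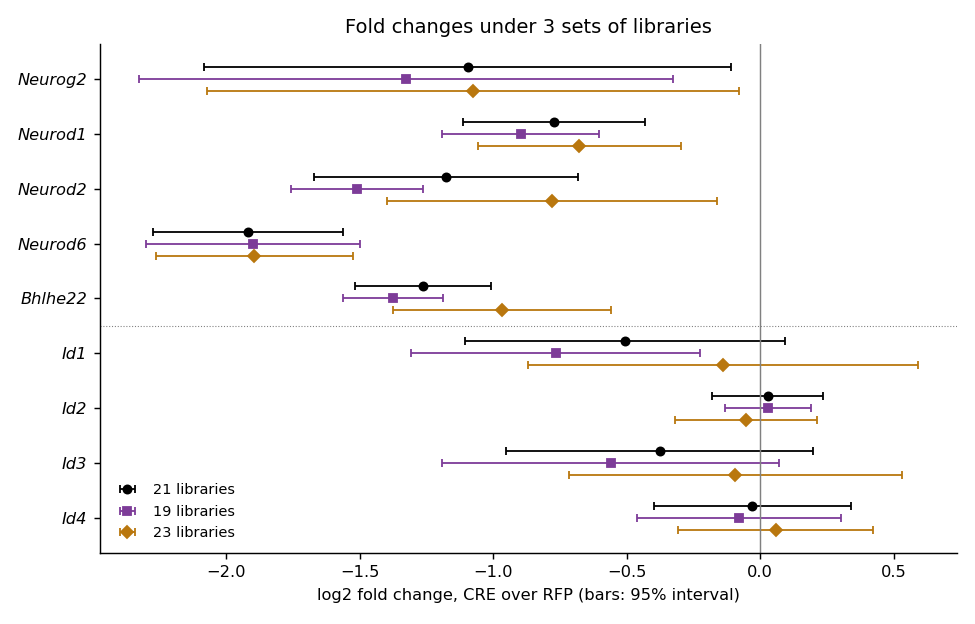
Log2 fold change of each gene, CRE over RFP (x axis), with its 95% interval, over 21 libraries (circles), the 19 without those that stand apart (squares) and all 23 (diamonds). The intervals of the 5 proneural genes lie below 0 in all 3 sets before adjustment for multiple testing, and those of Id2, Id3 and Id4 include 0 in all 3.

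Id2 was the most abundant Id gene (chromosome 12, 25143798-25147282, minus strand) and its level was close in the groups. It ranged from 134.5 to 205.1 CPM in RFP libraries (median 154.0) and from 127.7 to 216.3 CPM in CRE libraries (median 167.9), with 8 of 11 CRE libraries inside the RFP range. On the log2 scale the difference was 0.027 ± 0.10 (SE), and its 95% interval of -0.18 to 0.24 leaves out changes of the size seen for Neurod1, Neurod6 or Bhlhe22. The sign itself changed with the libraries used (-0.053 over all 23).

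Id4, known from astrocyte precursors (chromosome 13, 48414558-48419502, plus strand), ranged from 34.7 to 89.4 CPM in RFP and from 23.5 to 76.6 CPM in CRE libraries. It differed by -0.030 ± 0.18 on the log2 scale (SE, 95% interval -0.40 to 0.34), and its sign also depended on the libraries (0.058 over all 23).

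Id3 (chromosome 4, 135870808-135873066, plus strand) ranged from 12.7 to 68.9 CPM in RFP and from 12.3 to 57.4 CPM in CRE libraries, and 10 of 11 CRE libraries lay inside the RFP range. Its log2 fold change of -0.38 ± 0.28 (SE, 95% interval -0.95 to 0.20) had an edgeR adjusted p of 0.34. It was -0.56 over the 19 libraries, -0.093 over all 23, -0.24 without RFP 1-1, and -0.20, -0.17 and -0.72 without cultures 1, 2 and 3, and was called in none of these (adjusted p of 0.096 to 0.85). The interval is wide enough to hold both no change and a fall as large as that of Neurod1.

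Id1, the scarcest Id gene (chromosome 2, 152566218-152579544, plus strand), had 4.23 to 16.0 CPM in RFP libraries (median 10.7, 41 to 222 counts) and 2.05 to 18.0 CPM in CRE libraries (median 5.33, 24 to 132 counts). The highest value in CRE came from CRE 1-3, and the other 10 CRE libraries lay below the RFP median. Its log2 fold change of -0.51 ± 0.29 (SE, edgeR adjusted p = 0.20) became -0.73 with an adjusted p of 0.024 without CRE 1-3 and -0.77 with 0.022 over the 19 libraries, while all 23 libraries gave -0.14 with 0.81 and leaving out culture 2 gave -0.26 with 0.71. With the GC trend removed over the 21 libraries it was -0.63 with 0.060.

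The order of the members shifted between the groups. On the scale of CPM per kilobase of exon, the RFP medians ran from Neurod6 (143.4) and Bhlhe22 (101.6) through Id2 (44.2), Neurod2 (35.7), Neurod1 (23), Id3 (16.8), Id4 (11.2) and Id1 (6.05) to Neurog2 (1.47). The ranges of neighbours overlapped everywhere except between Bhlhe22 and Id2. In CRE libraries Id2 (48.2) stood first by median, before Bhlhe22 (41.0) and Neurod6 (37.7), and all neighbouring ranges overlapped. Within a library the ratio of Neurod6 to Id2 in CPM was 1.44 to 3.17 in RFP (median 1.98) and 0.228 to 0.952 in CRE (median 0.505), without overlap. How often the ratios of other gene pairs separate was not counted. A ratio of this kind does not depend on the scaling between libraries.

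The differences held to different degrees within the cultures. Neurod6 differed by -1.93, -1.68 and -2.34 on the log2 scale in cultures 1, 2 and 3 and Bhlhe22 by -1.07, -1.25 and -1.57, and in each culture their CRE and RFP libraries did not overlap. Groups of 3 to 4 libraries separate often, with CRE lower for 11.3, 11.4 and 14.4% of all genes tested in cultures 1, 2 and 3 and for 3.24% in all of them. Neurod2 differed by -1.03, -1.31 and -1.71, with overlap in culture 1 through CRE 1-3. Neurod1 differed by -0.64, -0.53 and -1.14. Neurog2 differed by -1.51 and -1.85 in cultures 1 and 2 but by 0.18 in culture 3, where its RFP mean was lowest (1.95 CPM).

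Of the Id genes, Id1 was lower in CRE in all 3 cultures, and the sign for Id2, Id3 and Id4 was not the same in all of them. Id2 differed by 0.36 in culture 1, where CRE was higher, and by -0.29 in culture 3, where CRE was lower, each without overlap, as for 11.8% of all genes with CRE higher in culture 1 and 14.4% with CRE lower in culture 3. In culture 2 it differed by 0.01. Id3 differed by -0.68, -0.76 and 0.50, and Id4 by -0.27, -0.11 and 0.33. Id1 differed by -0.51, -1.02 and -0.05. A test of whether the difference itself varied with culture (edgeR interaction term) gave adjusted p of 0.98 for every member over the 21 libraries, with 0.0069% of genes called. The smallest unadjusted p was 0.038, for Id2, and over the 19 libraries Id2 had an unadjusted p of 0.0073 and an adjusted p of 0.30.

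**Figure D3:**
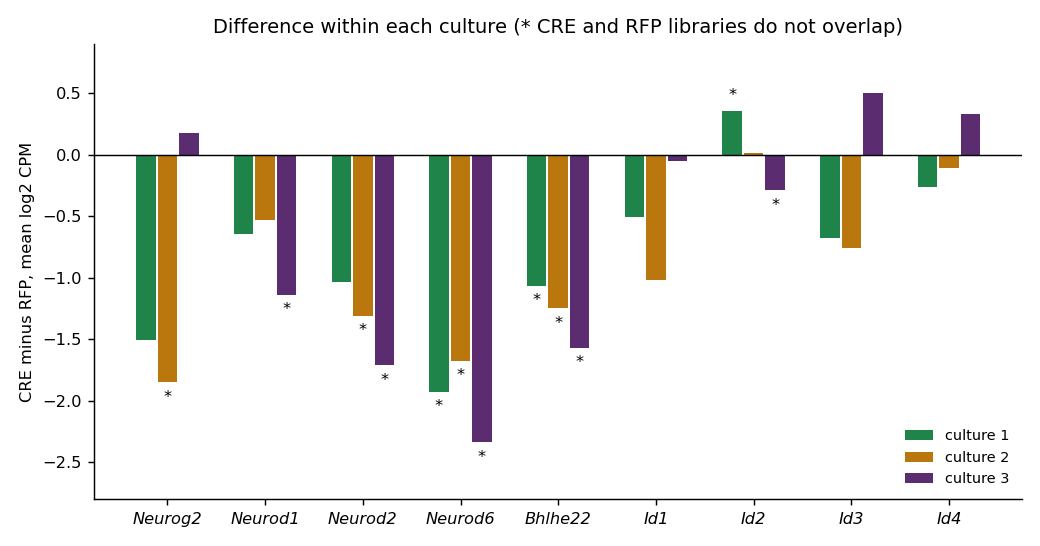
Difference of mean log2 CPM, CRE minus RFP (y axis), for each gene within cultures 1, 2 and 3 (bars, 3 to 4 libraries a group). Stars mark cultures in which CRE and RFP libraries did not overlap. Neurod6 and Bhlhe22 are lower and starred in all 3, and Id2 is starred in cultures 1 and 3, on a background of 11.3 to 15.8% of all genes separated in each direction in a culture.

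After the mean of each group was removed, Neurod2, Neurod6 and Bhlhe22 correlated with each other over the 19 libraries (Pearson's r of 0.69 for Neurod2 with Neurod6, 0.60 for Neurod6 with Bhlhe22 and 0.55 for Neurod2 with Bhlhe22). With CRE 1-3 and RFP 2-4 included, r was lower for Neurod2 with Neurod6 (0.25) and Neurod6 with Bhlhe22 (0.36) and higher for Neurod2 with Bhlhe22 (0.76). Id1, Id3 and Id4 also correlated with each other over the 19 libraries (0.75 for Id1 with Id3, 0.74 for Id3 with Id4, 0.62 for Id1 with Id4), with r of 0.79, 0.70 and 0.54 over the 21. Id2 had r of -0.32 to -0.07 with them over the 19 libraries and -0.21 to 0.17 over the 21. Neurog2 ran against Neurod6 (-0.59 over the 19 libraries and -0.58 over the 21). Its r with Neurod2 and Bhlhe22 was -0.53 and -0.51 over the 19 libraries but 0.085 and -0.084 over the 21. These are descriptions of 19 or 21 points that share cultures, depth and base composition.

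**Figure D4:**
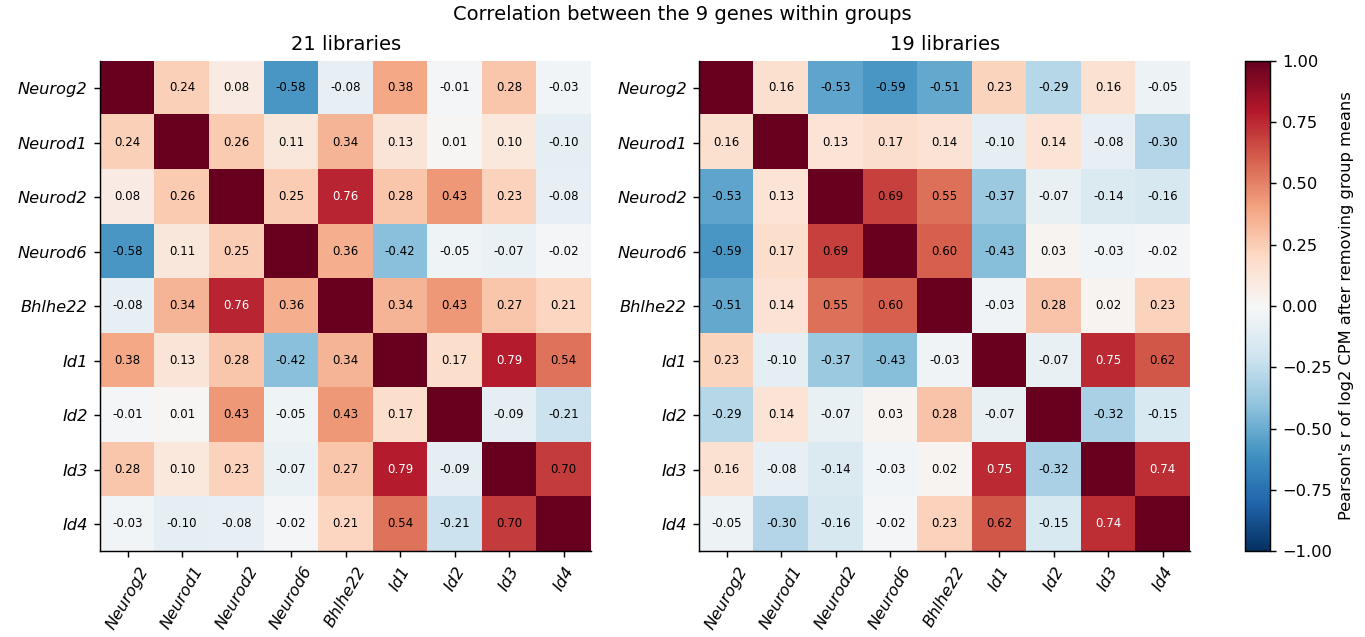
Pearson's r between the 9 genes, from log2 CPM after removal of group means, over 21 libraries (left) and the 19 without those that stand apart (right). Red is positive and blue negative, and the block of Id1, Id3 and Id4 appears in both panels without Id2.

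Among 9759 protein-coding genes with a mean of at least 10 CPM, the gene most like Neurod6 over the 21 libraries was Zdhhc23 (r = 0.83) and the one most like Bhlhe22 was Lrrtm1 (0.89). For Neurog2 it was the activity-regulated pentraxin gene Nptx1 (0.82), for Neurod1 Arxes1 (0.75) and for Neurod2 Atp13a2 (0.94, and 0.78 over the 19 libraries). Id1 was most like Kif26b (0.77), Id3 most like Sema5b (0.79) and Id4 most like Nr2f2 (0.80). Over the 19 libraries the genes most like Neurod6, Neurod1, Neurod2 and Id4 were others, Lrrn2 (0.89), Map9 (0.74), Armc10 (0.80) and Qki (0.85), while Nptx1, Lrrtm1, Kif26b and Sema5b held their places. The highest of many correlations is large by selection.

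Marker genes of the cell types in the dish moved alongside the members. In bulk RNA, fewer cells of a type and less RNA per cell cannot be told apart. Over the 21 libraries 13.8% of all genes tested were called lower and 16.4% higher. The shares were 18.7 and 19.4% over the 19 libraries and 11.8 and 16.4% over all 23. Of 11 glutamatergic markers 8 fell and 1 rose, and their summed level was 3498 to 5523 CPM in RFP and 1655 to 2540 CPM in CRE libraries, with Camk2a (-1.99) and the vesicular glutamate transporter Slc17a7 (-1.88) falling and Slc17a6 (1.45) rising. Of 11 pan-neuronal markers 6 fell and 1 rose, with sums of 6747 to 8069 CPM in RFP and 3727 to 6798 CPM in CRE. GABA neuron markers had 4 of 12 higher and 2 lower, with overlapping sums (1121 to 2370 and 936 to 1877 CPM). Over the 19 libraries 2 GABA markers were higher and 3 lower, so this balance depended on the libraries used. There 9 glutamatergic and 7 pan-neuronal markers fell and no pan-neuronal marker rose, and over all 23 libraries 7 and 5 fell. The part of these shifts in the fall of the proneural genes was not tested. The ratio of Neurod6 to Slc17a7 was 0.206 to 0.466 in RFP (median 0.314) and 0.115 to 0.463 in CRE (median 0.369), and that of Neurod6 to the neuronal nuclear gene Rbfox3 was 1.58 to 3.28 (median 2.37) and 0.483 to 2.25 (median 1.34). Neurod6 therefore lay lower in CRE against Rbfox3 by median, and not against Slc17a7, with overlap in both ratios. Over the 19 libraries, within groups, Neurod6 followed the pan-neuronal sum (r = 0.72) and the glutamatergic sum (0.68), which Neurog2 did not (-0.54 and -0.20).

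Glial, dividing and vascular markers give the setting of the Id genes. The shares over all genes are again 13.8% lower and 16.4% higher over the 21 libraries, 18.7 and 19.4% over the 19, and 11.8 and 16.4% over all 23. Astrocyte and radial glia markers had 4 of 14 higher, led by Nes (2.93), and 7 lower, led by Hes5 (-3.27), with overlapping sums (5105 to 9828 CPM in RFP, 2922 to 8299 CPM in CRE). Over the 19 libraries 4 were higher and 6 lower, and over all 23 libraries 4 and 4. Oligodendrocyte lineage markers fell in 6 of 9 tested, and all 8 markers of dividing cells fell, from sums of 169.0 to 308.4 CPM to 4.63 to 185.2 CPM. Over the 19 libraries 7 and 8 of them fell, and over all 23 libraries 5 and 7. Endothelial and mesenchymal markers had 2 of 8 tested higher and 1 lower (sums of 25.4 to 160.0 and 74.8 to 366.1 CPM), with Cldn5 at 0 in every RFP library. Microglial markers summed to at most 12.5 CPM in any library, and Cx3cr1 was at 0 in every CRE library. Over the 19 libraries Id4 followed the astrocyte and radial glia sum within groups (r = 0.80), Id3 less so (0.51), and Id1 (0.26) and Id2 (0.03) little. The part of glial or dividing cells in the Id levels was not tested.

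The partners of both families, the E proteins, did not pass the test. Tcf4, the most abundant, had medians of 779 CPM in RFP and 722 CPM in CRE libraries (log2 fold change -0.26, edgeR adjusted p = 0.25). Of the E proteins 0 of 3 were called, against 30.2% of all genes. Without the libraries that stand apart Tcf4 was called (-0.21, adjusted p = 0.030), and over all 23 libraries Tcf3 was (0.77, adjusted p = 0.032). With the GC trend removed both were called (Tcf4 -0.23, adjusted p = 0.016, and Tcf3 0.38, adjusted p = 0.027).

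Of 29 other tissue-specific bHLH genes 21 were too low to test, Neurog1, Neurod4 and Atoh1 among them. Olig2 of the oligodendrocyte lineage fell from a median of 190 to 88.6 CPM (edgeR adjusted p = 0.00084), a call that was lost over all 23 libraries (edgeR adjusted p = 0.12). Tal1 fell by 1.19 on the log2 scale. Msc rose, from 0.835 to 1.85 CPM. The Msc call was lost over all 23 libraries (edgeR adjusted p = 0.14). Olig1, the most abundant, had a log2 fold change of -0.21 that was not called. Over the 19 libraries Olig1 was called (-0.41, edgeR adjusted p = 0.0078), and over all 23 its sign turned (0.28, adjusted p = 0.52).

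The Hes and Hey genes, some of which Notch signaling induces against proneural genes, and the related repressors Bhlhe40 and Bhlhe41 had 1 of 8 tested members higher and 2 lower. Of all genes tested 16.4% were called higher and 13.8% lower, so these counts are near the shares over all genes. Hes5, a Notch target of progenitors and glia, fell from a median of 13.1 CPM to 1.42 CPM (log2 fold change -3.27, edgeR adjusted p = 4.1e-08). Its ranges of 2.58 to 19.3 and 0.718 to 2.05 CPM did not overlap, as for 2.08% of all genes tested with CRE lower. Hes6, which unlike Hes5 favors neuronal differentiation, fell by 0.46, a call that was lost over all 23 libraries (-0.16, edgeR adjusted p = 0.69). Bhlhe40 rose by 0.90, and Hey1, the most abundant of the 8 tested, was not called (-0.11).

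Of 13 tested genes of the Notch pathway 4 rose and 3 fell, where 16.4% of all genes tested were called higher and 13.8% lower. The ligand Jag1 rose from a median of 13 to 43.4 CPM (log2 fold change 1.51, edgeR adjusted p = 1.5e-05), and the transcriptional partner Rbpj and the receptor Notch2 rose by 0.63 and 0.45. Dll3, an inhibitory ligand of neuronal precursors, fell from 18.5 to 1.03 CPM (-2.54), and Rfng, the most abundant, fell by 0.52. Over all 23 libraries Rfng was not called (-0.30, edgeR adjusted p = 0.31). There 4 genes of the list rose and 1 fell, against 16.4 and 11.8% of all genes.

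The BMP pathway, upstream of the Id genes, had 5 of 16 tested ligands, receptors and Smads higher and 3 lower. For these and the feedback genes below, the shares over all genes tested are 16.4% higher and 13.8% lower. The ligand Bmp2 rose from a median of 1.66 to 11.4 CPM (log2 fold change 2.94, edgeR adjusted p = 8.6e-08) without overlap, as for 2.64% of all genes tested with CRE higher. The BMP-responsive Smads Smad9, Smad5 and Smad1 rose by 1.57, 0.68 and 0.55. The 3 that fell were the ligands Bmp4 (-1.82) and Bmp7 (-0.86) and the receptor Bmpr1b (-1.09), and the Bmp7 call was lost over all 23 libraries (-0.50, edgeR adjusted p = 0.29). Gdf6, with a median of 0 CPM in RFP libraries, reached 4.17 CPM in CRE libraries, and Bmpr2, the most abundant, was not called (-0.33) except over the 19 libraries (-0.30, edgeR adjusted p = 0.0033) and with the GC trend removed (-0.21, adjusted p = 0.026). Of 11 feedback genes and antagonists 6 rose and 2 fell, with Fstl1 (0.88), Grem1 (2.98), Bambi (1.10) and the inhibitory Smad6 (2.64) higher. Id1 to Id4, measured in the same libraries, were not called over the 21 libraries. Over the 19 libraries Id1 was called lower (-0.77, edgeR adjusted p = 0.022), as described above.

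Of 11 genes placed downstream of Neurog2 or paired with Bhlhe22, 8 were tested, 4 fell and 0 rose, with a median log2 fold change of -0.43. Of all genes tested 13.8% were called lower and 16.4% higher (lower over the 19 libraries 18.7%, over all 23 libraries 11.8%). Prdm8, the partner of Bhlhe22 in a repressor complex, fell from a median of 54.6 to 26.3 CPM (-1.07, edgeR adjusted p = 2.1e-07). The cadherin gene Cdh11, which that complex represses in cortical neurons, fell as well (-0.62), and Dll1 and Hes6 fell by 0.54 and 0.46. Over all 23 libraries the last 2 were not called (-0.35 and -0.16, edgeR adjusted p of 0.25 and 0.69), and the count of genes that fell was 2 of 8, against 6 of 8 over the 19. The Neurog2 target Rnd2 had -0.39 with an edgeR adjusted p of 0.059 over the 21 libraries and -0.48 with 0.0060 over the 19.

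**Figure D5:**
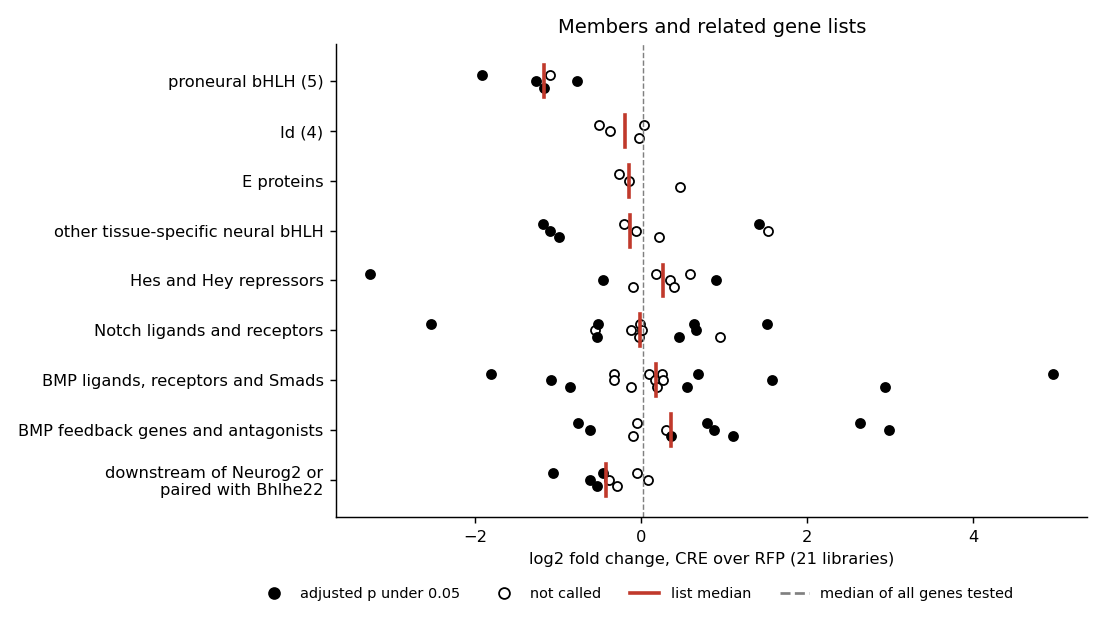
Log2 fold change, CRE over RFP (x axis), of every tested gene of each list (rows). Each point is a gene, filled where the adjusted p is under 0.05, red lines are list medians and the dashed line is the median of all genes tested, 0.02. Proneural genes lie at -1.92 to -0.77, Id genes at -0.51 to 0.027 and E proteins at -0.26 to 0.47, while Notch and BMP lists spread to both sides.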

How the data were processed

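RNA was sequenced after Illumina Stranded mRNA Prep. Per the study's methods and the submitters' processing notes, the authors used bcl2fastq 2.20.0.422, aligned reads with STAR 2.7.8a to GRCm39 (Ensembl 110, 2 mismatches in 50 bases) and counted them with featureCounts 1.5.0-p1. The strand setting and the treatment of reads that map to several places are not given in the sources used here. The authors deposited raw counts per gene for each library, as whole numbers without normalization.

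Genes were named from GENCODE M39 (56323 of 56941). Groups came from the labels. R 4.3.3 with edgeR 4.0.16 (filterByExpr, TMM, robust quasi-likelihood fit, Benjamini-Hochberg over all 14488 genes tested) compared 11 CRE with 10 RFP libraries with no covariate, the libraries of the count table in the study's supplement. DESeq2 1.42.0 was an alternative. CPM used TMM factors, and log2 CPM added 0.5. Tested on simulated counts of this comparison over 14488 genes, edgeR called 36 of 36 genes simulated at a log2 fold change of -2, 21 of 39 at -1 and 5 of 14124 unchanged genes.

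P-values measure the spread between these libraries, which may be technical. They treat each library as a replicate, except where counts were summed per culture. The members and gene lists were chosen with earlier results of these data known. Genes named beside the members are, for each list, up to 4 called genes with the smallest p and the most abundant member (up to 3 called genes for marker lists), and the most correlated gene for each member, with a few items not reported here. Rnd2, Smad5, Bmp4, Bmp7, Bmpr1b, Tcf3, Slc17a6 and the untested bHLH genes were named after their values were seen. Alternatives used other sets of libraries, DESeq2, other scaling, no filter, blocks for culture or library number, counts summed per culture, and counts with the GC trend removed (lowess span 0.3). Exons of Neurod6 share 635 bases with the antisense gene Gm3279 (18 counts in all 21 libraries, against 49150 for Neurod6) and those of Neurod1 share 204 bases with Cerkl on the same strand (67 counts, against 14494). Those of Nedd8 share 331 bases with the antisense gene Gmpr2. Upstream sequences were read from the GRCm39 genome. Plots used matplotlib 3.10.9.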

Additional observations from a re-analysis of the deposited data

Results flagged for a closer look

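In CRE 3-3, the shallowest library, which the comparisons left out, 4 of the 9 genes lay above every RFP library. Neurod2 reached 279.7 CPM (410 counts), Bhlhe22 498.6 CPM (731 counts), Id1 40.2 CPM (59 counts) and Id3 98.2 CPM (144 counts). The same library had 2.05 CPM of Nedd8 (3 counts), the lowest of all 23, and 50.5 CPM of Neurod6 (74 counts), below every RFP library. It was set apart for its 1546796 counts, its mitochondrial share of 1.83% and its trend of counts with GC content (Spearman's rho 0.626), and the part of these in the 4 values was not tested. In the 9 sets of 10 RFP libraries, 1 set for each gene, no single library was far from the others by Dixon's criterion, which flags about 1 set in 20 by chance. No such result is given for the CRE libraries. Among those compared, CRE 1-3 had 201.5 CPM of Neurod2, against 33.2 to 62.3 CPM in the others.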

How the results depend on the processing

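In 37 alternative fits per gene, Neurod6 (log2 fold change -2.12 to -1.67) and Bhlhe22 (-1.40 to -0.97) were called lower in every one, Neurod1 in 36 (exception: GC trend removed over all 23 libraries) and Neurod2 in 35 (exceptions: all 23 libraries, adjusted p = 0.053, and without culture 2, 0.052). Neurog2 was called in 7. With counts summed per culture the edgeR adjusted p was 4.2e-06 for Neurod6, 2.2e-05 for Bhlhe22 and 6.5e-05 for Neurod2. It was 0.00093 for Neurod1 and 0.074 for Neurog2. Proneural genes called lower numbered 3 to 5. The count of Id genes called, 0, became 1 (Id1) with the libraries left by the methods text, which removes CRE 1-3 and CRE 3-3, and with the 19 libraries, and lay between 0 and 1 when 1 library was left out (1 without CRE 1-3). Genes called, 4370 of 14488 (30.2%), ranged in leave-one-out fits from 2114 of 14745 (14.3%, without culture 2) to 5507 of 14498 (38%, without CRE 1-3). With no filter on low counts 6920 of 32701 genes were called, a smaller share (21.2%). With library totals in place of TMM the median log2 fold change of all genes was 0.11. With a log2 fold change beyond 1.3 and a -log10 adjusted p above 6 as limits, 1 member passed over the 21 libraries in place of 4 called. The cause of these changes was not tested.

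The sign of Id2 turned from 0.027 to -0.053 (23 libraries), -0.032 (methods text), -0.0058 (counts summed per culture), -0.013 (the same with the replicate block of culture) and -0.0072 (GC trend removed over 23 libraries), and lay between -0.13 and 0.12 in leave-one-out fits. That of Id4 turned from -0.030 to 0.058 (23 libraries), 0.041 (methods text), 0.060 (library totals), 0.041 (replicate block), 0.028 (GC trend removed) and 0.17 (GC trend removed over 23 libraries), and lay between -0.24 and 0.12 in leave-one-out fits. No adjusted p of either was under 0.05.

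Libraries with the same number correlated by -0.062 to 0.11 after removal of group means, so the numbers were not taken as pairs. With the replicate block of culture and library number 3121 genes were called, Neurog2 had -1.65 with an adjusted p of 0.054, and no member's call changed. Counting error weighs most on Neurog2, which had at most 113 counts in a compared library, and its part in the missing call was not tested.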
